A study of Mus musculus with 36 samples.

Results

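Epiblast-like cells (EpiLCs) of the wild-type mouse line PclWT were compared with EpiLCs of the wild-type line J2WT, as 3 RNA-seq libraries against 3, over the genes on the autosomes. PclWT served as control for knockouts of the Polycomb-like genes Phf1, Mtf2 and Phf19, and J2WT for a knockout of Jarid2. Both carried the strain label C57BL/6, and no mutation, transgene or drug treatment beyond the culture described here was stated for either. ESCs of both lines were grown in serum with LIF and inhibitors of GSK3 and MEK on gelatin, and EpiLCs were made from them in 2 days with activin A at 20 ng/ml, bFGF at 12 ng/ml and 1% KSR on fibronectin. Each line came from a different laboratory and stands for 1 line, and nothing in the labels says that the 3 libraries of a group were separate cultures. The series holds 36 libraries in 12 groups. PclWT ESCs and J2WT ESCs (3 libraries each) were used beside the main comparison. So were the 3 EpiLC libraries of another WT group, the control of a Pcgf2/4 knockout, whose labels do not name its line. Of 55401 genes in the tables, 50957 were autosomal. A mean normalised count of at least 15 over the 6 libraries was reached by 12879 of them, which were tested with edgeR's quasi-likelihood test, and 1116 of these lie on chromosome 11, which is also given apart.

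EpiLCs model the formative epiblast, the state between the naive pluripotency of the preimplantation embryo and the primed state that precedes gastrulation. On leaving the naive state, mouse cells shut down factors such as Klf2, Klf4 and Nanog and switch on Fgf5, Otx2, Pou3f1 and the de novo DNA methyltransferases, under the influence of FGF-ERK and Nodal-activin signalling. Polycomb repressive complex 2 (PRC2), which places methyl groups on lysine 27 of histone H3, is redistributed over developmental genes during the same passage, and WT lines such as these set the baseline against which its loss is read.

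PclWT and J2WT EpiLCs differed in 2923 genes, 22.7% of those tested. Of these, 1663 (12.9%) were higher and 1260 (9.78%) were lower in PclWT, by an edgeR adjusted p below 0.05 together with a log2 fold change beyond 1 in either direction. Without the requirement on fold change, 6101 genes (47.4%) passed. The median over all tested autosomal genes was 0.01 on the log2 scale, so differences of single genes below are read against a centre close to 0. For 8037 genes (62.4%) the 3 PclWT libraries lay wholly above or wholly below the 3 J2WT libraries, so separation of the libraries by itself was common. Line, source laboratory, library set and depth go together in this design, and their parts in any difference cannot be told apart.

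PclWT libraries were shallower than J2WT libraries, with 8281855, 8655605 and 8794206 counts in genes in PclWT against 17154437, 17079733 and 16535475 in J2WT. PclWT library 1 stood apart from its replicates. It differed by more than 2-fold from libraries 2 and 3 in 1674 (13%) and 1891 (14.7%) of the tested genes, whereas libraries 2 and 3 differed from each other in 112 (0.87%) and J2WT pairs in 38 to 49. In that library 28.8% of reads fell outside single genes (23.7% and 24.0% in the other PclWT libraries, 25.8% to 26.4% in J2WT), and genes in its shortest exon-length group of 5 were 0.53 higher, those in its longest 0.60 lower (log2 medians), than in the other PclWT libraries. When it was left out, 3061 of 12990 genes (23.6%) were called, 1663 higher (12.8%) and 1398 lower (10.8%), among them 88.3% of the 2923, and 10226 (78.7%) passed the adjusted p alone. In that fit the pattern with length changed, with 363 genes higher and 176 lower in the longest exon-length group, and 282 higher and 514 lower in the shortest. In the fit with all libraries the median log2 fold changes of the 5 length groups lay between -0.03 and 0.06. Without library 1 they ran from -0.22 in the shortest group to 0.14 in the longest. The narrow range of the full fit thus does not mean that PclWT and J2WT libraries were free of a length trend. Fold changes without library 1 are therefore given below for named genes whose call they change. Counts without it are given for some gene lists only, and other lists changed as well. Epithelial genes then had 12 lower instead of 9, and naive genes 4 higher instead of 3. Germline genes had 5 higher and 5 lower instead of 6 and 4.

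The EpiLCs of the other WT group lay nearer to J2WT for most of these genes. The labels do not say whether this group comes from a line other than J2WT. Of the 1663 genes higher in PclWT, 1474 (88.6%) had a mean level in the other WT EpiLCs that was closer to J2WT than to PclWT, and so did 1172 (93.0%) of the 1260 lower genes. Median log2 ratios of this group to J2WT over the same genes were 0.19 and -0.14, against 1.47 and -1.69 for PclWT over J2WT. This comparison was added after the values had been seen and carries no test.

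Formative genes were lower in PclWT EpiLCs. Of 16 genes of formative and primed pluripotency tested, 9 were lower and 0 higher in PclWT (56.2% called, beside 22.7% of all genes tested). The median log2 fold change was -1.15 (all genes tested: 0.01), and 11 were lower when PclWT library 1 was left out. Fgf5, a secreted growth factor that marks the post-implantation epiblast (chromosome 5, 98254184 to 98277030 in GRCm38), had 0.766, 0.921 and 1.00 CPM in PclWT libraries 1 to 3, against 59.0, 58.7 and 57.1 CPM in J2WT libraries 1 to 3. All PclWT libraries were thus far below every J2WT library, with 26 counts in the 3 PclWT libraries and 2820 in J2WT (log2 fold change -5.94, SE 0.14, edgeR adjusted p 8.67e-06). Otx2, a homeodomain factor that directs the exit from the naive state (chromosome 14, 48657677 to 48673819), had 3.50, 3.58 and 3.10 CPM in PclWT, against 112, 116 and 122 CPM in J2WT. The groups did not overlap (log2 fold change -5.04, SE 0.12, edgeR adjusted p 8.67e-06). Otx2 sits in a stretch of chromosome 14 in which 28 tested genes between 45 and 50 Mb had a median log2 fold change of -1.07, and the part of that stretch in its difference was not tested. In the other WT EpiLCs, Fgf5 averaged 44 ± 2.21 CPM and Otx2 159 ± 3.50 CPM (SD, n = 3).

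Other formative factors were lower but present in PclWT. Pou3f1, which encodes the POU factor OCT6, had 166, 103 and 98.0 CPM in PclWT, against 552, 554 and 567 CPM in J2WT (log2 fold change -2.12, SE 0.22, edgeR adjusted p 0.000468). PclWT library 1 was the highest of its group and still well below J2WT. The de novo DNA methyltransferase Dnmt3b had 347, 478 and 467 CPM in PclWT, against 2180, 2220 and 2240 CPM in J2WT (log2 fold change -2.30, SE 0.15, edgeR adjusted p 8.66e-05). Here library 1 was the lowest of its group, and no library overlapped the other line. Grhl2, an epithelial transcription factor that opens enhancers in EpiLCs, had 15.1, 21.1 and 21.1 CPM in PclWT, against 142, 142 and 138 CPM in J2WT (log2 fold change -2.82). Foxd3, Zic2, Lef1 and Cldn6 were also lower, with log2 fold changes of -2.71, -1.16, -1.44 and -1.15.

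Not every formative gene passed both limits. Etv4, an ETS factor downstream of FGF, had 176, 156 and 141 CPM in PclWT, against 179, 177 and 175 CPM in J2WT, where the lines overlapped (log2 fold change -0.10, edgeR adjusted p 0.50). Etv4 lies on chromosome 11, where the median gene was higher in PclWT by 0.51. Dnmt3a, the other de novo methyltransferase, had a log2 fold change of -0.81 (387, 503 and 488 CPM against 839, 843 and 831 CPM) and did not reach the size limit. Utf1 and Dnmt3l, at -0.96 each, were called only when PclWT library 1 was left out (-1.23 and -1.18).

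**Figure D1:**
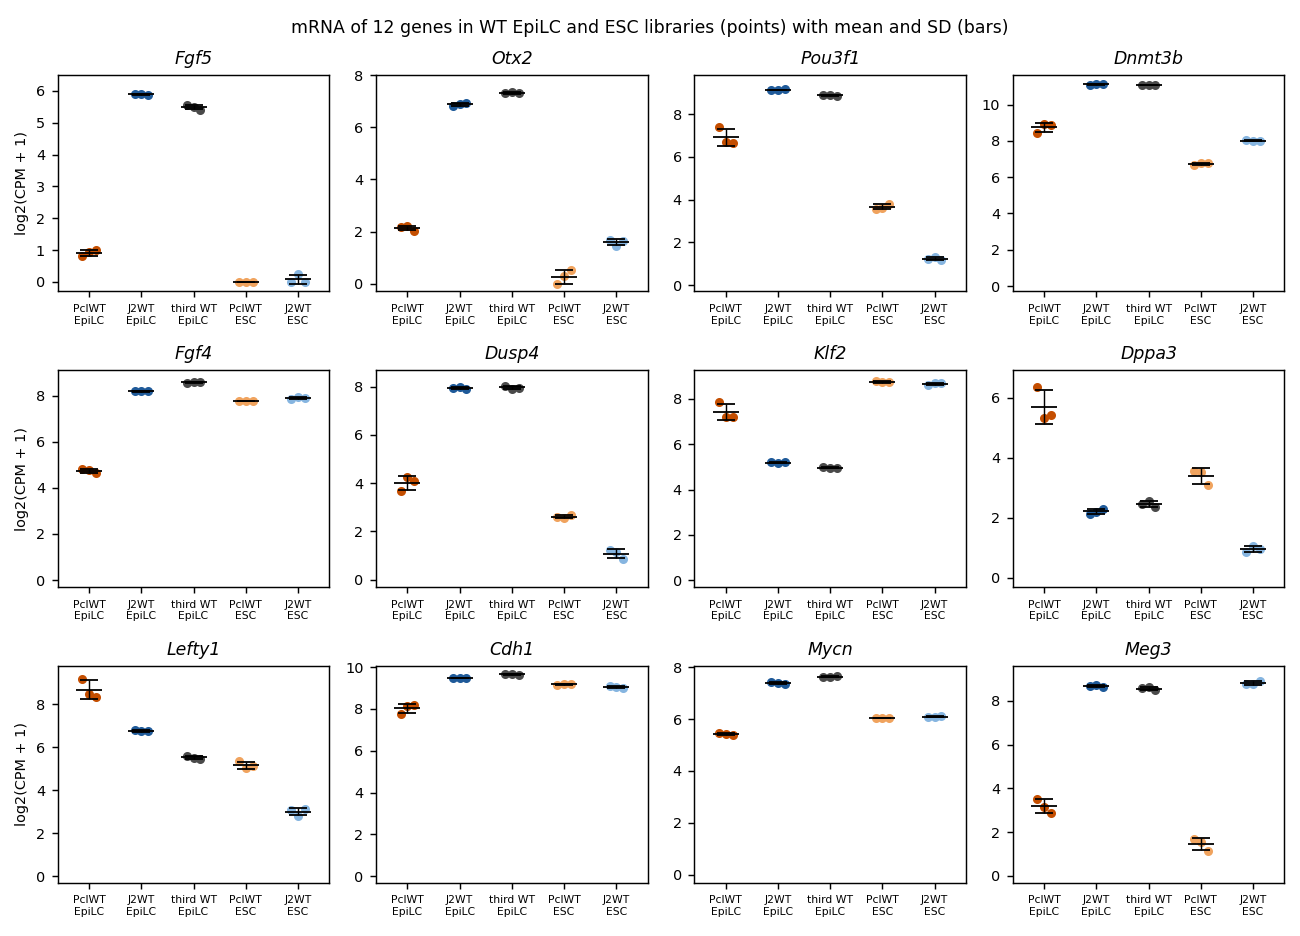
Levels of 12 genes as log2(CPM + 1) in each library (points) with the mean and SD of each group of 3 libraries (bars). Groups from left to right are PclWT EpiLCs, J2WT EpiLCs, EpiLCs of the other WT group, PclWT ESCs and J2WT ESCs. Fgf5, Otx2, Fgf4, Dusp4 and Meg3 in PclWT EpiLCs lie far below J2WT EpiLCs, and Klf2, Dppa3 and Lefty1 lie above them.

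Naive pluripotency genes went both ways. Of 15 tested, 3 were higher (Klf2, Dppa3 and Tcl1) and 3 lower (Klf5, Gbx2 and Fgf4) in PclWT, and the median was 0.42. Together they were 40% of the list, beside 22.7% of all autosomal genes tested. Klf2, a Krüppel-like factor that sustains naive self-renewal, had 229, 148 and 145 CPM in PclWT, against 35.8, 34.8 and 35.8 CPM in J2WT. The groups stood well apart, with library 1 the highest (log2 fold change 2.36, SE 0.21, edgeR adjusted p 0.000236). Dppa3, also called Stella, which protects methylation imprints in the zygote, had 80.4, 39.4 and 41.9 CPM in PclWT, against 3.41, 3.62 and 3.89 CPM in J2WT (log2 fold change 3.95, SE 0.33, edgeR adjusted p 0.000212). Library 1 was well above the other PclWT libraries, and without it the value was 3.54. Dppa3 lies on distal chromosome 6, a stretch over which the median gene was also higher in PclWT, by 0.56.

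Other naive factors did not pass both limits. Klf4 had 5.25, 8.90 and 7.31 CPM in PclWT, against 4.94, 3.99 and 5.75 CPM in J2WT, and the lines overlapped (log2 fold change 0.61, edgeR adjusted p 0.0642). In ESCs, Klf4 averaged 332 ± 29.5 CPM in PclWT and 376 ± 2.67 CPM in J2WT (SD, n = 3), so both lines had left that level behind. Nanog, on distal chromosome 6 like Dppa3, had 130, 87.9 and 86.9 CPM in PclWT, against 56.7, 56.9 and 63.8 CPM in J2WT (log2 fold change 0.85, edgeR adjusted p 0.00921, under the size limit), and its ESC levels were 1318 ± 54.0 CPM in PclWT and 793 ± 15.2 CPM in J2WT (SD, n = 3). Of the genes that were lower, Gbx2, a homeobox gene of the LIF-dependent network, had 5.14, 3.38 and 3.60 CPM in PclWT, against 54.6, 53.7 and 50.9 CPM in J2WT (log2 fold change -3.65, edgeR adjusted p 4.19e-05).

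Of 11 pluripotency genes shared by both states, 3 were lower in PclWT and 0 higher (median -0.81). That is 27.3% of the list, beside 22.7% of all autosomal genes tested. Tdgf1, the Nodal co-receptor Cripto, had 115, 90.2 and 88.8 CPM in PclWT, against 456, 439 and 452 CPM in J2WT (log2 fold change -2.13, edgeR adjusted p 8.91e-05). Sall1 and Trim28 were lower by the same criteria, at -2.35 and -1.08. Pou5f1, which encodes OCT4, had 479, 347 and 326 CPM in PclWT, against 733, 737 and 751 CPM in J2WT, and its log2 fold change of -0.88 passed the size limit only without library 1 (-1.08). Sox2 had a value of -0.81 (236, 175 and 181 CPM in PclWT, against 355, 366 and 364 CPM in J2WT). Every PclWT library was below every J2WT library for Pou5f1 and Sox2. In bulk RNA such as this, fewer cells of a state and less RNA per cell cannot be told apart.

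FGF-ERK signalling genes were lower in PclWT at the level of ligands, feedback inhibitors and targets. Of 19 tested, 10 were lower and 1 higher (57.9% called, beside 22.7% of all autosomal genes tested), with a median of -1.10. The gene that was higher is the receptor gene Fgfr3 (1.53), whose call was lost without J2WT library 1 (1.44) or 3 (1.29). Fgf4, the FGF that pluripotent cells make to drive their own differentiation, had 27.1, 26.2 and 23.9 CPM in PclWT, against 291, 296 and 289 CPM in J2WT. Replicates agreed closely within each line (log2 fold change -3.44, SE 0.10, edgeR adjusted p 1.58e-05). Fgf15, whose gene lies next to Fgf4 on chromosome 7, had 0.438, 0.614 and 0.4 CPM in PclWT, against 24.7, 22.3 and 21.9 CPM in J2WT (14 counts against 1112 in all, log2 fold change -5.48).

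Negative regulators that ERK activity induces were lower as well. Dusp4, a phosphatase of ERK, had 11.7, 17.9 and 16.1 CPM in PclWT, against 245, 249 and 239 CPM in J2WT (log2 fold change -3.94, SE 0.17, edgeR adjusted p 2.99e-05). Spry4, a Sprouty inhibitor of receptor signalling, had 14.1, 21.4 and 23.5 CPM in PclWT, against 166, 162 and 158 CPM in J2WT (log2 fold change -2.98). No library of one line reached the other for either gene. Spry1, Spry2 and Dusp6 were lower, at -1.10, -1.65 and -1.80, as were the ERK-responsive transcription factors Etv5 (-1.5) and Egr1 (-1.16). The main FGF receptor of the epiblast, Fgfr1, had 103, 114 and 107 CPM in PclWT, against 123, 128 and 129 CPM in J2WT, and was not called (log2 fold change -0.17).

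Nodal and activin genes were mixed, with 4 higher and 5 lower of 18 tested and a median of 0.05. Calls made 50% of this list, beside 22.7% of all autosomal genes tested. Lefty1, a secreted Nodal antagonist that Nodal itself induces, had 580, 352 and 328 CPM in PclWT, against 110, 106 and 107 CPM in J2WT. Even the lowest PclWT library was over 3 times the J2WT level (log2 fold change 2.03, SE 0.24, edgeR adjusted p 0.0007). Furin, a protease that matures Nodal, was also higher (1.25). Nodal itself had 125, 93.3 and 89.6 CPM in PclWT, against 59.7, 56.9 and 60.6 CPM in J2WT, a log2 fold change of 0.86 that stayed under the size limit. Lower genes included the inhibitory Smad7 (-1.35), the SMAD co-repressor Skil (-1.36) and follistatin, Fst, which binds activin (-2.45). Of the activin-responsive genes, Lefty1 and Smad7 therefore differed in opposite directions between the lines.

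Wnt genes counted 4 higher and 3 lower of 21 tested (of 30 in the list), with a median of 0.28. This makes 33.3% called, beside 22.7% of all autosomal genes tested. Sfrp1, a secreted Wnt antagonist, had 37.2, 49.0 and 52.1 CPM in PclWT, against 8.04, 7.49 and 6.83 CPM in J2WT (log2 fold change 2.69, SE 0.16, edgeR adjusted p 7.16e-05). Its ESC level was 198 ± 12.8 CPM in PclWT and 225 ± 3.95 CPM in J2WT (SD, n = 3), so both lines were lower in EpiLCs and PclWT less so. The ligands Wnt8a (1.68) and Wnt5b (1.48) were higher, and the receptor Fzd7 (-1.65) and the repressor Tcf7l1 (-1.23) were lower. Wnt5b lies on distal chromosome 6, where the median gene was higher in PclWT by 0.56. Axin2, a common readout of canonical Wnt activity, was not called (0.28), and lies on chromosome 11, where the median was 0.51.

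Among 13 BMP genes tested of 20, 2 were higher and 4 lower (46.2% called, median 0.35). Bmp7, a BMP ligand, had 8.86, 10.2 and 10.7 CPM in PclWT, against 0.670, 0.429 and 0.830 CPM in J2WT, a clear separation (log2 fold change 4.00, SE 0.22, edgeR adjusted p 5.80e-05). Bmp4 was lower instead, at 1.64, 1.74 and 1.40 CPM in PclWT, against 5.0, 5.34 and 4.85 CPM in J2WT (log2 fold change -1.60). Like Otx2, Bmp4 lies on chromosome 14 between 45 and 50 Mb, where the median was -1.07. The part of that stretch in its difference was not tested. Id2, a direct target of BMP signalling, was lower (-1.85), and the inhibitory Smad6 was higher (1.24). When PclWT library 1 was left out, 3 BMP genes were higher and 7 lower. Of 17 Notch genes 3 were higher and 0 lower, among them the ligand Jag2 (1.09) and the target Hey1 (1.28), and of 11 LIF-STAT3 genes 1 was higher and 2 lower, which makes 17.6% and 27.3% of those lists, beside 22.7% of all autosomal genes tested.

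**Figure D2:**
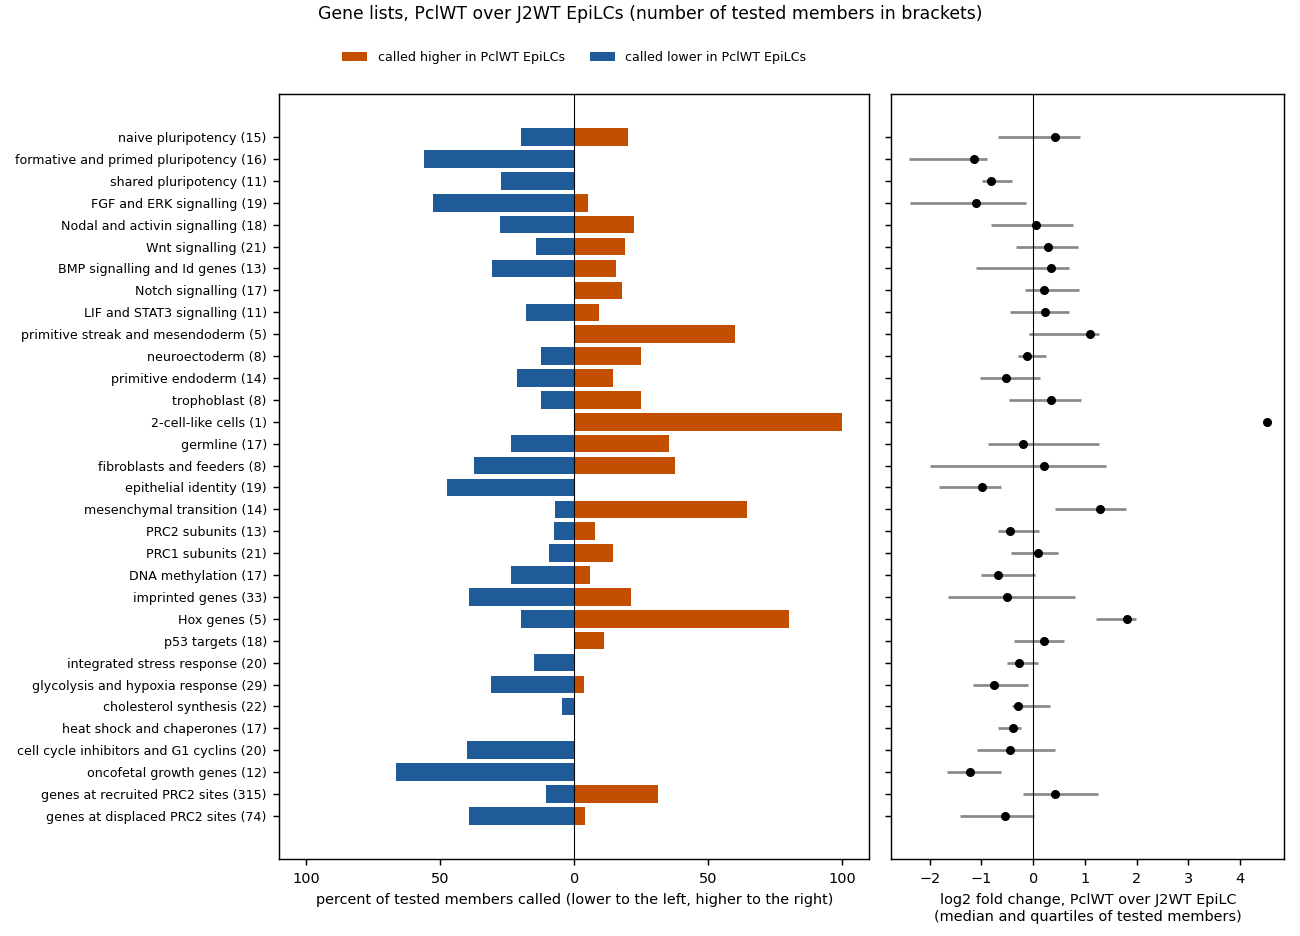
Share of tested members called lower or higher in PclWT EpiLCs for each gene list (left, percent of tested members) and the median with quartiles of the log2 fold change, PclWT over J2WT EpiLCs (right). Formative, FGF-ERK, epithelial, oncofetal and glycolysis lists lean to lower values, and the mesenchymal list leans to higher values. All autosomal genes tested, which are not drawn, had a median of 0.01.

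Epithelial genes were lower and mesenchymal genes higher in PclWT. Of 19 epithelial genes 9 were lower and 0 higher (median -0.99). Of 14 mesenchymal genes tested 9 were higher and 1 lower (median 1.29), with 6 higher and 1 lower outside chromosome 11. The shares called were 47.4% and 71.4%, beside 22.7% of all autosomal genes tested. Cdh1, E-cadherin, had 218, 278 and 288 CPM in PclWT, against 708, 707 and 719 CPM in J2WT (log2 fold change -1.38, SE 0.13, edgeR adjusted p 0.000276). All PclWT libraries were under the lowest J2WT library. Rab25, an epithelial trafficking GTPase, had 0.766, 0.614 and 0.601 CPM in PclWT, against 12.1, 11.5 and 12.6 CPM in J2WT (log2 fold change -4.11). The tight-junction gene Cldn4 (-2.06), the keratin gene Krt18 (-1.49), the splicing regulator Esrp1 (-1.65) and the desmosome gene Dsp (-2.77) were lower too. Epcam had 256, 181 and 168 CPM in PclWT, against 312, 306 and 314 CPM in J2WT, and did not reach the size limit (-0.56).

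On the mesenchymal side, the matrix metalloprotease gene Mmp14 had 12.8, 14.2 and 13.5 CPM in PclWT, against 3.47, 3.44 and 3.96 CPM in J2WT (log2 fold change 1.96, SE 0.12, edgeR adjusted p 8.45e-05). Zeb1, a repressor of E-cadherin, had 11.5, 21.5 and 22.1 CPM in PclWT, against 5.30, 5.64 and 5.49 CPM in J2WT (log2 fold change 1.81). Library 1 was the lowest of its group for Zeb1 and still above J2WT. Snai1, another E-cadherin repressor, was higher (1.25), as were Mmp2 (1.74) and, on chromosome 11, Col1a1 (2.75). Vimentin, Vim, was the exception, at 53.5, 36.0 and 35.9 CPM in PclWT, against 137, 133 and 132 CPM in J2WT (log2 fold change -1.62).

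Of 16 fibroblast and feeder markers, 8 reached the count minimum, 3 of them higher and 3 lower in PclWT (median 0.20). Among the tested markers 75% were thus called, beside 22.7% of all autosomal genes tested. The defining markers Lum, Postn, Prrx1 and S100a4 had between 0 and 1 counts in all 6 libraries together. Dcn, decorin, had 6 counts in PclWT and 362 in J2WT, and the collagen gene Col1a2 (-3.17) and Vim (-1.62), the intermediate filament gene vimentin, were lower in PclWT. The collagen gene Col1a1 (2.75), Twist1 (1.34), a mesenchymal transcription factor, and Loxl1 (1.63) were higher. The summed level of the list was 146 to 176 CPM in PclWT and 208 to 217 CPM in J2WT, and its part in other results was not tested.

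Of 20 cell cycle inhibitors, G1 cyclins and Myc genes, 8 were lower and 0 higher (median -0.44), 40% beside 22.7% of all genes tested. Another 8 passed the adjusted p alone, 6 with higher and 2 with lower values in PclWT. Mycn, the Myc family member most used by pluripotent cells, had 42.7, 41.4 and 40.3 CPM in PclWT, against 170, 165 and 163 CPM in J2WT. Replicates were tight and the groups far apart (log2 fold change -1.94, SE 0.09, edgeR adjusted p 3.76e-05). Myc itself had 33.9, 35.4 and 30 CPM in PclWT, against 119, 124 and 120 CPM in J2WT (log2 fold change -1.81, SE 0.11, edgeR adjusted p 6.54e-05). The cyclin genes Ccnd1 (-1.28) and Ccnd3 (-1.33) and their kinase Cdk4 (-1.15) were also lower. Of 12 oncofetal growth genes, 8 were lower and 0 higher (66.7% called, median -1.23), and without library 1 there were 6 lower and 1 higher. Hmga2, a chromatin protein of fetal growth, had 9.73, 13.2 and 12.3 CPM in PclWT, against 56.5, 60.3 and 61.2 CPM in J2WT (log2 fold change -2.27), and Hmga1 was lower, at -1.37. Neither gene overlapped between the lines.

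Of 29 glycolysis and hypoxia genes, 9 were lower and 1 higher (median -0.76), with 34.5% called. Ldha, lactate dehydrogenase A, had 525, 372 and 337 CPM in PclWT, against 1380, 1330 and 1320 CPM in J2WT (log2 fold change -1.65, SE 0.19, edgeR adjusted p 0.000638). The glucose transporter Slc2a1 (-1.13), the glycolytic enzyme Aldoa (-1.17) and the hypoxia-responsive peptide gene Adm (-2.65) were lower. P4ha2, a collagen prolyl hydroxylase on chromosome 11, was the member that was higher (2.04). Of 18 p53 targets 2 were higher and 0 lower, of 20 genes of the integrated stress response 0 were higher and 3 lower, of 22 cholesterol genes 1 was lower (Stard4, -1.29), and of 17 heat shock and chaperone genes 0 passed both limits, with medians of 0.20, -0.28, -0.30 and -0.39. Those calls make 11.1%, 15%, 4.55% and 0% of the genes of each list, beside 22.7% of all autosomal genes tested. Another 10, 6, 9 and 9 genes of the same lists passed the adjusted p alone, among them 8 heat shock and chaperone genes with lower values in PclWT.

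Imprinted genes were strongly divided between the lines. Of 33 tested of 36 listed, 7 were higher and 13 lower in PclWT, with a median of -0.51. The share called was 60.6%, beside 22.7% of all autosomal genes tested. At the imprinted Dlk1-Dio3 domain on chromosome 12, where the maternal chromosome makes long noncoding RNAs and the paternal one makes Dlk1, the noncoding RNAs were nearly off in PclWT. Meg3 (109541001 to 109571726 in GRCm38) had 10.6, 7.78 and 6.41 CPM in PclWT, against 410, 414 and 398 CPM in J2WT. Not one PclWT library came near J2WT (log2 fold change -5.56, SE 0.21, edgeR adjusted p 2.32e-05). Rian, further along the same domain, had 8.53, 10.9 and 13.1 CPM in PclWT, against 488, 498 and 500 CPM in J2WT (log2 fold change -5.45, SE 0.18, edgeR adjusted p 1.58e-05). Mirg, the most distal of these RNAs, had 24 counts in PclWT and 1773 in J2WT (log2 fold change -5.39). Reads at Rtl1 (-5.44) were counted without regard to strand, and the opposite strand makes a noncoding RNA, so the source of those reads cannot be told apart. Dlk1 was lower as well, at 4.81, 3.48 and 3.40 CPM in PclWT, against 11.9, 12.2 and 12.1 CPM in J2WT (log2 fold change -1.57).

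The same RNAs were low in PclWT before differentiation. In ESCs, Meg3 averaged 1.79 ± 0.516 CPM in PclWT and 449 ± 29.6 CPM in J2WT, and Rian 3.65 ± 0.282 CPM in PclWT and 471 ± 20.9 CPM in J2WT (SD, n = 3). Among the other groups Meg3 averaged 7.61 CPM in EpiLCs and 1.09 CPM in ESCs of TKO, which lacks the 3 Polycomb-like proteins, and 0.543 and 0.116 CPM in those of QKO, which lacks JARID2 as well. Against these stood 358 CPM in J2KO EpiLCs, 235 CPM in Pcgf2/4 knockout EpiLCs and 376 CPM in the other WT EpiLCs. Meg3 was thus low in PclWT and in both mutants that lack the Polycomb-like proteins, and high in every other group.

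Other imprinted genes differed in both directions. Peg3 (-1.92), Peg10 (-2.28), Snrpn (-1.82), Mest (-1.37), Impact (-1.46) and H19 (-1.42) were lower in PclWT. Phlda2, a growth regulator of the placenta, had 144, 77.0 and 75.8 CPM in PclWT, against 16.6, 17.8 and 20.6 CPM in J2WT (log2 fold change 2.50). Ndn, necdin, was higher by 2.39. Grb10, an adaptor that restrains insulin signalling, lies on chromosome 11 and had 255, 404 and 391 CPM in PclWT, against 79.8, 83.6 and 90.0 CPM in J2WT (log2 fold change 2.11, SE 0.19, edgeR adjusted p 0.000242). Its level in the other WT EpiLCs was 180 ± 4.31 CPM (SD, n = 3), between those of PclWT and J2WT.

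Of 17 genes of DNA methylation, 1 was higher (Dppa3) and 4 were lower (median -0.69). These are 29.4% of the list, beside 22.7% of all autosomal genes tested. Besides Dnmt3b and Trim28, these were Uhrf1 (-1.23), the adaptor of maintenance methylation, and the remodeller Hells (-1.29). Uhrf1 had 201, 326 and 300 CPM in PclWT, against 669, 678 and 676 CPM in J2WT. Hells had 319, 418 and 408 CPM in PclWT, against 972, 972 and 979 CPM in J2WT. Both genes separated the lines, with PclWT library 1 the lowest of all.

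Of 13 PRC2 subunit genes 1 was higher (Ezh1) and 1 lower (Phf19), with a median of -0.45, and of 21 PRC1 genes 3 were higher and 2 lower (median 0.10), or 2 and 1 without PclWT library 1. These are 15.4% of PRC2 and 23.8% of PRC1 genes, beside 22.7% of all autosomal genes tested. Another 6 PRC2 genes, 5 of them lower in PclWT, and 5 PRC1 genes passed the adjusted p alone. Phf19, one of the Polycomb-like genes, had 2.84, 2.87 and 3.40 CPM in PclWT, against 8.23, 7.85 and 9.45 CPM in J2WT (log2 fold change -1.42, edgeR adjusted p 0.000484). The others were not called, Mtf2 with 198, 233 and 240 CPM in PclWT, against 368, 360 and 367 CPM in J2WT (-0.65), and Phf1 with 9.84, 6.24 and 7.31 CPM in PclWT, against 5.85, 5.77 and 4.66 CPM in J2WT (0.58). Jarid2 had 294, 431 and 433 CPM in PclWT, against 767, 774 and 766 CPM in J2WT, with no overlap (-0.93). Jarid2 lay just inside the size limit, and was called lower without a count filter (-1.02) and without PclWT library 2 or 3 (-1.0 and -1.01), but not without library 1 (-0.77). The genes whose knockouts these lines serve as controls for were expressed in both lines. The catalytic subunit gene Ezh2 was not called (-0.72). Suz12, on chromosome 11, had a value of 0.70, also under the size limit. The call on Ezh1, also on chromosome 11, held at 1.01 and was lost under RLE normalisation (1.00) and when one of several libraries was left out (0.95 to 0.98). In PRC1, Phc2 (1.53) and Scmh1 (1.31) were higher and Bmi1 (-1.22) was lower.

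Genes at sites where PRC2 is gained or lost between the stages differed more often. The study's site classes, which were set from SUZ12 binding in these same WT lines and are therefore not independent of them, gave 398 recruited and 78 displaced sites, with 394 and 78 autosomal genes whose start lay within 2000 bp. Of 315 recruited-site genes tested, 98 were higher and 33 lower in PclWT EpiLCs (median 0.43), a higher share of calls (41.6%) than over all genes (22.7%). Of 74 displaced-site genes tested, 3 were higher and 29 lower (43.2% called, median -0.54). Outside chromosome 11, 88 recruited-site genes were higher and 32 lower, and 2 displaced-site genes were higher and 27 lower. In ESCs the counts ran the other way, with 23 higher and 109 lower of 347 recruited-site genes tested and 32 higher and 2 lower of 57 displaced-site genes.

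Kit, the receptor for stem cell factor and a recruited-site gene, had 53.3, 90.0 and 87.9 CPM in PclWT EpiLCs, against 8.23, 9.02 and 9.26 CPM in J2WT EpiLCs. Every PclWT library was several-fold above J2WT (log2 fold change 3.18, SE 0.22, edgeR adjusted p 0.000108), while in ESCs Kit averaged 103 CPM in PclWT and 222 CPM in J2WT. Aqp3, a water and glycerol channel, had 11.4, 8.29 and 8.01 CPM in PclWT EpiLCs, against 0.853, 0.307 and 0.575 CPM in J2WT EpiLCs (log2 fold change 4.03). Its ESC means were 90.1 CPM in PclWT, against 378 CPM in J2WT. Npr3, a clearance receptor for natriuretic peptides, was higher by 3.51. Grik3, a glutamate receptor subunit, was the reverse case at 0.656, 4.20 and 4.20 CPM in PclWT, against 27.2, 28.7 and 26.5 CPM in J2WT (-3.11). Among displaced-site genes, Vrtn, a regulator of vertebral number in pigs, had 17.6, 19.3 and 18.6 CPM in PclWT EpiLCs, against 131, 124 and 125 CPM in J2WT EpiLCs (log2 fold change -2.71, SE 0.10, edgeR adjusted p 1.79e-05). In ESCs Vrtn averaged 2.77 CPM in PclWT and 0.128 CPM in J2WT. The transcription factor gene Myb (-2.65) and, on chromosome 11, Bcl11a (-1.76) were lower too. Pou3f1 and Dnmt3b also belong to the displaced-site genes.

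Of 17 primitive streak and mesendoderm genes only 5 reached the count minimum, 3 of them higher and 0 lower (median 1.10). These 3 made 60% of the tested genes of the list, beside 22.7% of all autosomal genes tested. Cdx1, a posterior homeobox gene and a Wnt target, had 5.47, 3.79 and 3.70 CPM in PclWT EpiLCs, against 0.305, 0.123 and 0.255 CPM in J2WT EpiLCs (124 counts against 11, log2 fold change 4.25, edgeR adjusted p 0.000182). In ESCs Cdx1 averaged 58.7 ± 5.35 CPM in PclWT and 158 ± 6.76 CPM in J2WT (SD, n = 3). Hhex, of the anterior endoderm, was higher (1.28). Mixl1 was also called higher, but lost the call without a count filter, with the replicate block and without library 2 or 3 of either line. At a count minimum of 50, 2 genes of this list were tested and 1 was higher. The defining streak gene T had 14 counts in PclWT and 6 in J2WT, and Eomes was at 8.75, 8.80 and 7.11 CPM in PclWT, against 8.77, 9.14 and 9.39 CPM in J2WT. For Eomes the lines overlapped (-0.08).

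Among 8 neuroectoderm genes tested, 2 were higher and 1 lower (median -0.12), 37.5% called beside 22.7% of all autosomal genes tested. The neural factor gene Sox1 was lower, at 3.17, 3.48 and 2.7 CPM in PclWT, against 21.9, 23.6 and 21.7 CPM in J2WT (log2 fold change -2.78), and the neuronal tubulin gene Tubb3 was higher (1.42). Of 14 primitive endoderm genes tested, 2 were higher, 1 of them outside chromosome 11, and 3 lower (35.7% called, median -0.53). Another 7 did not pass the adjusted p, and the endoderm genes named here are from the lower side only. Gata6 had 0.438, 1.02 and 0.300 CPM in PclWT, against 5.73, 6.56 and 5.55 CPM in J2WT (log2 fold change -3.26), and the endocytic receptor gene Cubn was lower, at -4.66. The defining endoderm genes Sox17 and Sox7 had 9 and 3 counts in PclWT and 50 and 40 in J2WT. Trophoblast genes gave 2 higher and 1 lower of 8 (37.5%), with a median of 0.34, or -0.02 without PclWT library 1. Tfap2c (2.23), also a member of the germline list, was higher. Krt18, named above with the epithelial genes, was the 1 that was lower. Another 4 autosomal members did not reach the count minimum.

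Germline genes gave 6 higher and 4 lower of 17 (58.8% called, beside 22.7% of all autosomal genes tested, median -0.19). Hormad1, a meiotic chromosome axis gene, had 9.84, 5.01 and 8.01 CPM in PclWT, against 82.0, 75.9 and 75.5 CPM in J2WT (log2 fold change -3.29), while Asz1 of the piRNA pathway, on chromosome 6, was higher (2.76). Prdm1, the germ cell specifier Blimp1, was lower, at -2.0. Zscan4d, a marker of the 2-cell-like state, was the one gene of 12 in its list to reach the count minimum, at 3.72, 3.99 and 3.70 CPM in PclWT, against 0.0609, 0.307 and 0.128 CPM in J2WT (log2 fold change 4.51), and reads of this gene cannot be separated with certainty from its near-identical family members. Of 39 Hox genes 5 were tested, 4 higher and 1 lower, and 3 of the higher ones (Hoxb1, Hoxb9 and Hoxb13) lie on chromosome 11. Hoxb13 had 7.33, 3.99 and 3.60 CPM in PclWT, against 0.183, 0.0614 and 0.383 CPM in J2WT (log2 fold change 4.58), and the posterior gene Hoxd13 was lower, at -2.17. Hoxb1 (1.82) was not tested once PclWT library 1 was left out, since it then fell below the count minimum.

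The largest differences were genes read in one line and almost not in the other. Olig1, a basic helix-loop-helix factor of oligodendrocytes, had 232 counts in the 3 PclWT libraries and 0 in J2WT, at least 129-fold higher in PclWT when the J2WT group is set to a floor of 3 counts in all. Its neighbour Olig2 had 205 counts in PclWT and 3 in J2WT, a ratio of 114 (95% counting interval 38.6 to 559). Zfp9, a zinc finger gene on distal chromosome 6, had 103 counts in PclWT and 1 in J2WT (ratio 172, 30.3 to 6873). For Trim12a the counts were 300 in PclWT and 3 in J2WT (ratio 167, 56.7 to 816), and the gene belongs to a family of close copies. Hmgn3, a nucleosome-binding protein gene, had 15.3, 8.19 and 7.11 CPM in PclWT, against 0.0609, 0.123 and 0.128 CPM in J2WT (log2 fold change 6.56). The other genes among the 12 largest were C1qtnf6, Apoa2, Rnf26, Ush1c, Ncmap, Gipc2 and Abcd2.

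In the other direction, Gbp2b, an interferon-induced GTPase gene, had 0 counts in PclWT and 409 in J2WT, at least 81.5-fold lower in PclWT against the same floor. Xirp2 had 0 counts in PclWT and 240 in J2WT (at least 47.8-fold lower), Bcl2l15 had 0 and 132 (at least 26.3-fold lower) and Trim34b had 0 and 156 (at least 31.1-fold lower). Adgrg6, an adhesion receptor gene and a recruited-site gene, had 3 counts in PclWT and 539 in J2WT, so that J2WT exceeded PclWT by 107 (36.5 to 522). Eno1b had 0.219, 0.614 and 0.701 CPM in PclWT, against 205, 207 and 202 CPM in J2WT (log2 fold change -8.54, SE 0.25, edgeR adjusted p 1.58e-05). Reads of Eno1b cannot be told apart with certainty from those of its near-identical copy Eno1, and members of the Gbp and Trim families are uncertain for the same reason. The remaining genes of this group of 12 were Wdr64, Prss46, Il10, Sftpd, Dnah6 and Cd96. Each had 1 or 2 counts in PclWT and between 211 and 333 in J2WT. Intervals and floors cover counting error only.

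Chromosome 11 stood apart as a whole. Of its 1116 tested genes, 285 (25.5%) were higher and 50 lower in PclWT, with a median log2 fold change of 0.51, against 1378 higher (11.7%) and 1210 lower (10.3%) of the 11763 genes on the other autosomes, whose median was -0.03. Chromosome 11 held 13.5%, 13.6% and 13.6% of autosomal counts in the PclWT libraries, against 10.3%, 10.3% and 10.2% in J2WT. In ESCs the median was again 0.51, and the shares were 13.8% to 13.9% in PclWT, against 9.93% to 9.96% in J2WT. The difference held along the chromosome except between 10 and 30 Mb, where windows of 10 Mb had medians of 0.12 and 0.02, while the others had 0.33 to 0.69. Without PclWT library 1 the median was 0.46.

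The most abundant genes of the chromosome did not pass the limits. None of the 8 most abundant chromosome 11 genes was called. Npm1, nucleophosmin, had 4080, 2590 and 2550 CPM in PclWT, against 3770, 3670 and 3790 CPM in J2WT (log2 fold change -0.22). Fasn, fatty acid synthase, had 833, 1850 and 1830 CPM in PclWT, against 1480, 1580 and 1470 CPM in J2WT (0.05). Library 1 lay on the other side of J2WT from its replicates for both genes. Rack1, Eif4a1, Kpnb1, Eif5a, Ywhae and Top2a had values of 0.27, -0.15, -0.67, -0.16, 0.06 and -0.29. Without PclWT library 1 none of the 8 was called, and the values were -0.48 for Npm1, 0.35 for Fasn, -0.0033 for Rack1, -0.26 for Eif4a1, -0.48 for Kpnb1, -0.45 for Eif5a, -0.08 for Ywhae and -0.09 for Top2a.

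**Figure D3:**
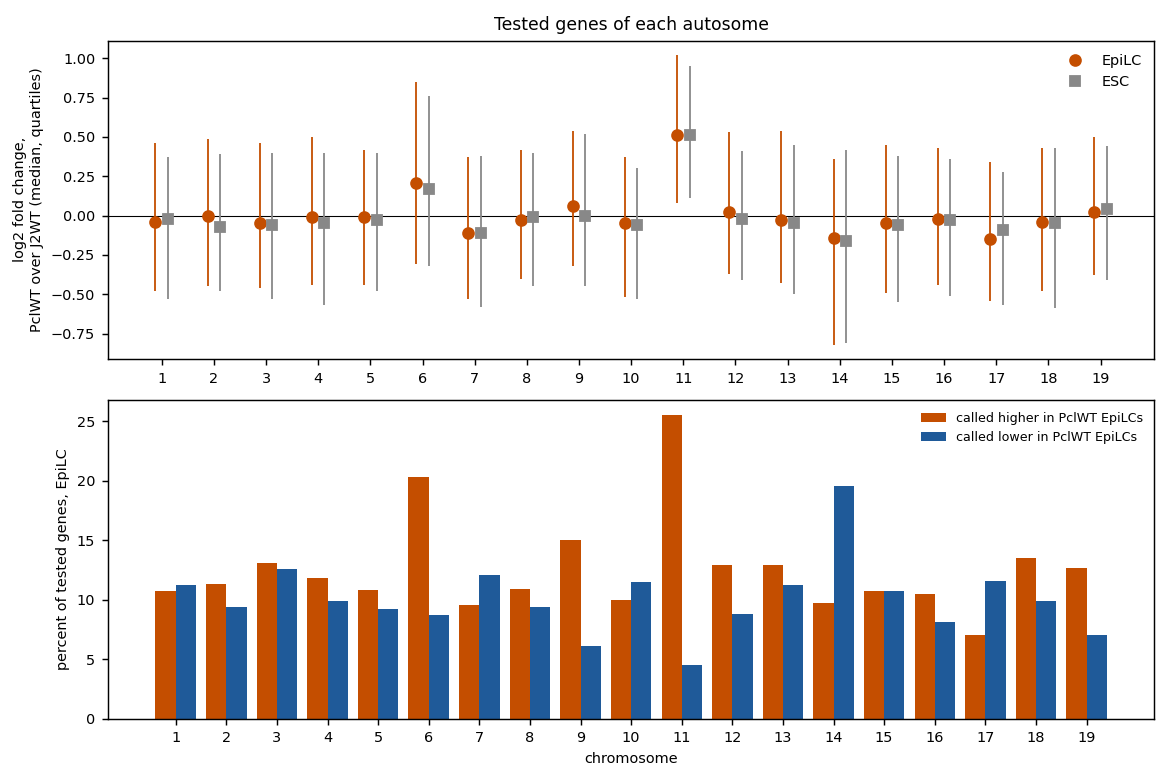
Median and quartiles of the log2 fold change, PclWT over J2WT, for the tested genes of each autosome in EpiLCs and in ESCs, with the percent of genes called higher and lower in EpiLCs. Chromosome 11 has a median of 0.51 at both stages, chromosome 6 has 0.21 in EpiLCs, and the other autosomes lie between -0.15 and 0.06 in EpiLCs.

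A scan in windows of 5 Mb, made after the values were seen and given as a description, found 25 of 298 windows with at least 15 genes whose median stood at least 0.4 from 0 in EpiLCs and ESCs alike, 19 higher and 6 lower. Chromosome 11 held 14 of them, out of its 20 windows, and chromosomes 6 and 14 held 4 each. On chromosome 6 from 110 Mb onwards, 67 of 230 tested genes (29.1%) were higher and 7 lower, with a median of 0.56 (0.59 in ESCs), whereas the 401 genes before that point had a median of -0.03. On chromosome 14 between 65 and 80 Mb, 37 of 86 tested genes (43.0%) were lower and 3 higher, with a median of -0.88 (-0.86 in ESCs). Without PclWT library 1, the median was 0.57 on distal chromosome 6, where 26.8% of genes were then higher, and -0.92 on the chromosome 14 stretch. Of the 25 windows, 3 then had EpiLC medians inside the 0.4 limit, at 0.30 and 0.33 on chromosome 11 and at -0.27 on chromosome 2.

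The 3 stretches behaved differently in the other lines. Over chromosome 11 genes, the median log2 ratio to the J2WT EpiLC mean was 0.38 to 0.43 in the PclWT EpiLC libraries and 0.42 to 0.43 in PclWT ESCs. It was 0.41 to 0.45 in J2KO, but between -0.13 and -0.03 in TKO, QKO, the Pcgf2/4 knockout and the other WT EpiLCs. Distal chromosome 6 was at 0.46 to 0.49 in PclWT EpiLCs, 0.31 to 0.38 in TKO EpiLCs and 0.50 to 0.52 in TKO ESCs, and at -0.08 to -0.02 in QKO. The chromosome 14 stretch was at -1.08 to -0.82 in PclWT EpiLCs and -0.97 to -0.93 in PclWT ESCs, and between -0.12 and 0.07 in all other groups. Counts alone do not say what sets these levels, and DNA copy number was not analysed here.

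**Figure D4:**
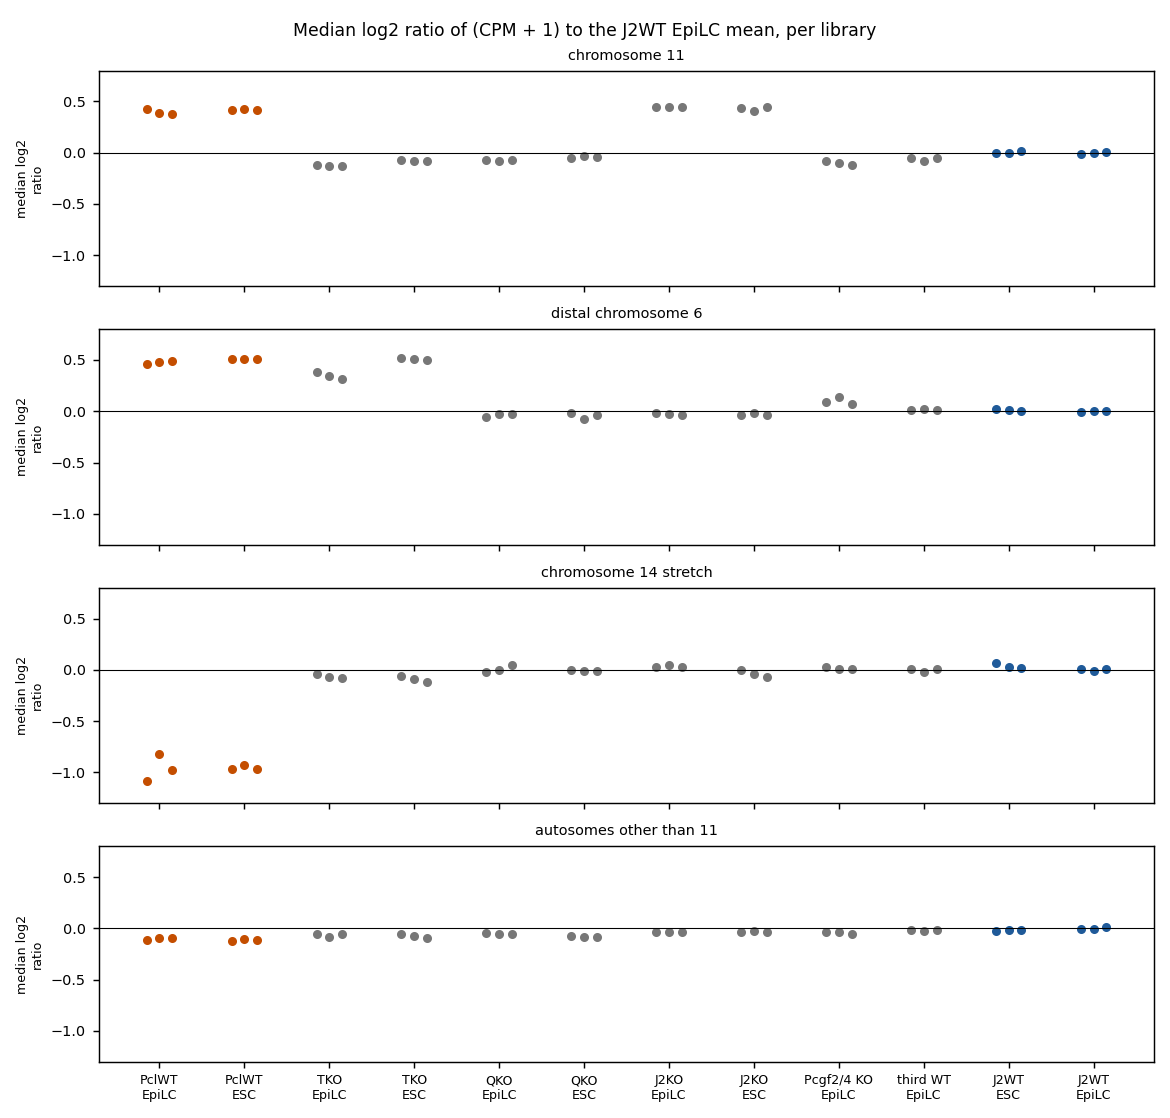
Median log2 ratio of (CPM + 1) to the J2WT EpiLC mean over the genes of chromosome 11, distal chromosome 6, the chromosome 14 stretch and the other autosomes, for each of the 36 libraries by group. PclWT EpiLC libraries are at 0.38 to 0.43 for chromosome 11 and at -1.08 to -0.82 for the chromosome 14 stretch.

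The line difference was only partly shared with ESCs. In ESCs 3064 of 12649 genes (24.2%) differed between PclWT and J2WT, 1516 higher (12%) and 1548 lower (12.2%), and 9696 (76.7%) passed the adjusted p alone. Of 11999 genes tested at both stages, 1417 were higher in PclWT EpiLCs and 1419 in PclWT ESCs, and 693 were in both lists, 48.9% of the EpiLC list and 48.8% of the ESC list. For lower genes the shared number was 539, 54.7% of the EpiLC list and 42.5% of the ESC list. Opposite calls were made for 51 genes higher and 47 genes lower in EpiLCs.

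The difference between the stages was tested directly. In the contrast of the EpiLC line difference minus the ESC line difference, 2740 of 12927 genes (21.2%) were called, 1466 with a more positive value in EpiLCs (11.3%) and 1274 with a more negative one (9.86%). Of 17 formative genes tested in this contrast, 15 were more negative in EpiLCs and 0 more positive. Pou3f1 was higher in PclWT ESCs, at 11.7 ± 1.09 CPM in PclWT and 1.35 ± 0.118 CPM in J2WT (SD, n = 3), and lower in PclWT EpiLCs (difference of log2 fold changes -5.28, SE 0.30, edgeR adjusted p 2.20e-07). Dnmt3a had 201 ± 7.46 CPM in PclWT ESCs and 38.0 ± 1.82 CPM in J2WT ESCs (SD, n = 3), with a difference of -3.26. Fgf4 was alike in ESCs, with 217 ± 1.43 CPM in PclWT and 238 ± 4.18 CPM in J2WT (SD, n = 3), and differed by -3.37 between the stages (edgeR adjusted p 1.52e-09). Dusp4 had 5.10 ± 0.266 CPM in PclWT ESCs and 1.14 ± 0.286 CPM in J2WT ESCs (SD, n = 3), with a difference of -6.15.

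Of 341 recruited-site genes tested in this contrast, 158 were more positive in EpiLCs and 16 more negative, and of 73 displaced-site genes 0 were more positive and 49 more negative. For Kit the difference was 4.23, for Aqp3 6.04 and for Cdx1 5.62, and for Vrtn it was -7.11. Meg3 and Rian, which were far lower in PclWT at both stages, had differences of 2.33 and 1.51. Of 18 epithelial genes 12 were more negative and 1 more positive, with Cdh1 at 581 ± 9.43 CPM in PclWT ESCs and 525 ± 16.9 CPM in J2WT ESCs (SD, n = 3) and a difference of -1.58. Mycn and Myc, which were similar in ESCs (65.2 and 24.5 CPM in PclWT, against 67.3 and 21.4 CPM in J2WT), had differences of -1.95 and -2.05.

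The most positive differences were those of genes that were far lower in PclWT than in J2WT ESCs. Hspb7, a small heat shock protein gene, averaged 0.0323 CPM in PclWT ESCs and 12.9 CPM in J2WT ESCs (difference 8.71), and only 0.0365 CPM in PclWT EpiLCs and 0.0213 CPM in J2WT EpiLCs, a level too low to compare the lines in EpiLCs. Sp5, a Wnt-induced zinc finger gene, averaged 4.31 CPM in PclWT ESCs and 66.1 CPM in J2WT ESCs, and in EpiLCs had 1.64, 1.23 and 1.00 CPM in PclWT, against 0.122, 0 and 0 CPM in J2WT (difference 8.6). Cacng5, Ciita, Kbtbd11 and Ccbe1 followed with 7.79, 6.78, 6.61 and 6.39. The most negative differences were those of Rbbp8nl (-9.03), Trem2 (-8.82), Tmem54 (-8.60), Neurog1 (-8.48), Tmem154 (-8.01) and Cd96 (-7.64). Like Hspb7, the genes Sp5, Cacng5, Ciita, Ccbe1 and Neurog1 did not reach the count minimum of the EpiLC comparison. In EpiLCs Ciita had 8 counts in PclWT and 10 in J2WT, and Neurog1 had 5 and 6, too few to compare the lines there. Tmem54, a membrane protein gene, had 9.30, 5.42 and 5.50 CPM in PclWT EpiLCs, against 39.2, 36.0 and 37.3 CPM in J2WT EpiLCs. Its ESC means were 2.14 CPM in PclWT, against 0.0215 CPM in J2WT. Fitted values of genes with so few counts in one group depend on the prior count and are no bound on a fold.

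**Figure D5:**
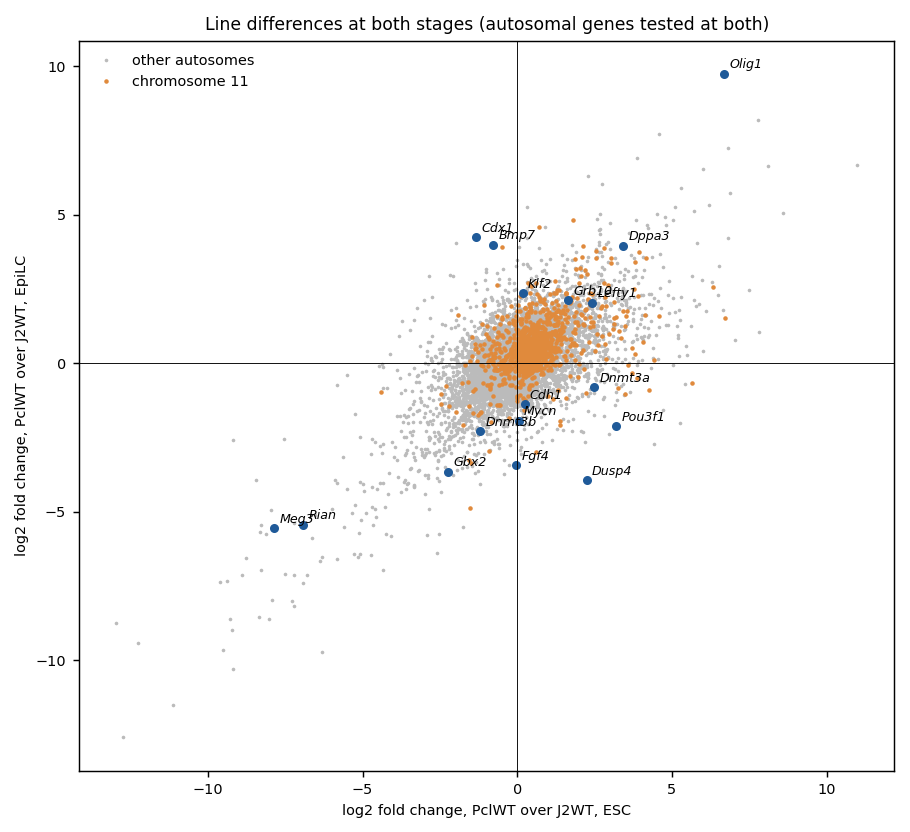
Log2 fold change of PclWT over J2WT in EpiLCs against that in ESCs for genes tested at both stages, with chromosome 11 genes in orange and named genes labelled. Pou3f1 and Dusp4 lie below 0 in EpiLCs and above 0 in ESCs, Cdx1 and Bmp7 the other way round, and Meg3 and Rian below 0 at both stages.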

How the data were processed

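Poly(A) RNA of 3 PclWT and 3 J2WT EpiLC libraries was compared, with the ESC libraries of the same lines beside them. The authors prepared NEBNext libraries, aligned the reads to GRCm38 with STAR (2.7.1, Ensembl annotation 101, by the study's methods) and deposited 1 table of raw gene counts per library. The column that ignores strand was used, since the kit does not mark strand. Overlapping genes and antisense partners share reads in it. Reads in no single gene were 23.7% to 28.8% of the 6 libraries and stayed out of library sizes. Symbols and positions came from GENCODE annotation of GRCm38 (55141 of 55401 genes).

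Levels are CPM scaled by TMM over the 36 libraries, so CPM are comparable between libraries and not between genes of different length. Each fit used only its own libraries in edgeR 4.0.16 (quasi-likelihood test, R 4.3.3) and took genes whose normalised counts averaged at least 15. Calls needed a Benjamini-Hochberg adjusted p below 0.05 over all genes tested and a log2 fold change beyond 1 in size. The difference between stages was a contrast of 4 groups. Standard errors were derived from the F statistic. Lists and chromosomes were described by counts and medians, without tests. The spread behind the p-values is that between libraries, and it may be technical.

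Genes named are members of the 30 lists or of the recruited and displaced site classes, the 12 protein-coding genes called with the greatest fold changes per direction and no overlap of libraries (clone names left out), the 8 most abundant chromosome 11 protein-coding genes, and the 6 with the largest stage difference in each direction. The comparison and the lists were chosen with earlier results of these data known. Alternatives were DESeq2 1.42.0, RLE normalisation, TMM factors outside chromosome 11, count minimums of 50 and none, protein-coding genes only, adjusted p alone, a fit on the 12 WT libraries, the replicate number as a block, and each library left out in turn. Deviations from the group mean correlated between EpiLC and ESC libraries of 1 number in PclWT (0.457, 0.248 and 0.209) and not in J2WT (-0.0386, -0.0268 and -0.0162). PclWT numbers 2 and 3 correlated about as much across numbers (EpiLC 2 with ESC 3 0.195, EpiLC 3 with ESC 2 0.262). Only number 1 was thus set apart. The procedure was tested on simulated counts with the same spread in every library. None of these stood apart as PclWT library 1 does, so the simulation does not cover that case. No 2 libraries held identical counts. One gene of the lists is not reported here.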

Additional observations from a re-analysis of the deposited data

Results flagged for a closer look

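Line differences that were not the same in EpiLCs and ESCs were picked out by the direct test of the difference between the stages, in edgeR. Over all autosomal genes, 1466 had a more positive and 1274 a more negative value in EpiLCs. Among formative, FGF, epithelial and growth genes, the values (EpiLC minus ESC line difference, log2) were -5.28 for Pou3f1, -3.26 for Dnmt3a, -2.90 for Grhl2, -3.91 for Cldn6, -1.08 for Dnmt3b, -1.90 for Otx2, -3.37 for Fgf4, -6.98 for Fgf15, -6.15 for Dusp4, -3.93 for Esrp1, -2.05 for Myc and -1.95 for Mycn. The Otx2 call (edgeR adjusted p 0.0408) was lost with the replicate block and when most single libraries were left out (-1.96 to -0.92), and the Dnmt3b call was lost without PclWT EpiLC library 1 (-0.95). More positive values were those of Klf2 (2.22), Bmp7 (4.81), Cdx1 (5.62), Meg3 (2.33) and Rian (1.51). The 6 most positive single genes were Hspb7 (8.71), Sp5 (8.6), Cacng5 (7.79), Ciita (6.78), Kbtbd11 (6.61) and Ccbe1 (6.39). The most negative were Rbbp8nl (-9.03), Trem2 (-8.82), Tmem54 (-8.60), Neurog1 (-8.48), Tmem154 (-8.01) and Cd96 (-7.64). Of these, Hspb7, Sp5, Cacng5, Ciita, Ccbe1 and Neurog1 did not reach the count minimum of the EpiLC comparison. For Fgf5 the value of -3.06 was not called, with 0 counts in PclWT ESCs. Causes of these differences were not tested.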

How the results depend on the processing

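The 2923 EpiLC calls stayed within 1.5 times under DESeq2 (2963), RLE normalisation (2925), TMM factors outside chromosome 11 (2966, 60.2% of them higher, against 56.9%), protein-coding genes (2589), the 12 WT libraries (2946) and leave-one-out (2672 to 3061). They were 1867 at a count minimum of 50, 4397 without a count filter and 6101 by adjusted p alone. Leave-one-out gave 3029 to 3148 calls in ESCs and 2599 to 2980 for the stage difference. The chromosome 11 median (0.51) was 0.56 and that of the other autosomes (-0.03) was 0.02 with TMM factors outside chromosome 11, and leave-one-out gave 0.46 to 0.54 and -0.04 to -0.02. Replicate numbers did not pair the lines (correlations of deviations -0.0452 to 0.0838 in EpiLCs), and with the replicate number as a block 2910 EpiLC, 3064 ESC and 2691 stage-difference genes were called. Across stages, libraries of number 1 went together in PclWT, while numbers 2 and 3 were not told apart. Among the genes named for the stage difference the block ended the call of Otx2 alone (-1.90, edgeR adjusted p 0.0662). Of 188 genes examined singly 158 were called, 145 of them under every setting that gave a value, and 13 lost the call under at least 1, 4 without PclWT library 1 and 12 without another single library. Of those not called, 6 were called under at least 1 setting, Jarid2 among them. Also of genes not called, Eomes turned to 0.03 without PclWT library 3 (leave-one-out -0.13 to 0.03), Rack1 to -0.0033 without PclWT library 1 (to 0.42), Ywhae to -0.04 without a count filter and -0.08 without PclWT library 1 (to 0.14), and Fasn to -0.04 without a count filter, -0.03 with the replicate block, and -0.11 and -0.10 without PclWT libraries 2 and 3 (to 0.35). The causes of these changes were not tested, apart from the count filter and the size limit, which change which genes are counted.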
